A study of Mus musculus with 8 samples.

Results

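Of the 55367 genes in the deposited count table, 10 genes of the proximal tubule brush border were followed here by symbol: the peptidases Anpep, Dpp4, Xpnpep2, Dpep1, Ggt1, Mep1a and Mep1b, the disaccharidase Treh, and the scaffold genes Pdzk1 and Vil1. All 10 of 10 passed the filter on low counts and were tested. Dpep1, the renal dipeptidase, was 3.03-fold lower in c-MafΔTAM kidneys than in c-Maf fl/fl kidneys and its levels did not overlap between the genotypes. The other 9 genes overlapped between the genotypes, and none of them passed the test in all 8 mice.

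The brush border is the carpet of actin-filled microvilli on the apical face of the proximal tubule. Its membrane carries peptidases that cut filtered peptides and glutathione into amino acids and dipeptides, which neighbouring transporters then take up, together with a trehalose-splitting enzyme. Under the membrane, villin bundles the actin of the microvilli, and PDZ-domain scaffolds such as Pdzk1 hold transporters in place through their cytoplasmic tails.

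RNA-seq of whole kidney compared mice without the transcription factor c-Maf, encoded by Maf, with controls, 4 mice against 4. Both genotypes were C57BL/6J, carried 2 floxed Maf alleles, were labelled as 8 weeks old and received tamoxifen (TAM). The c-MafΔTAM mice also carried CAG-Cre-ER TM, a TAM-activated Cre under a ubiquitous promoter, so deletion was not restricted to the kidney, while the c-Maf fl/fl controls had no Cre, and any effect of Cre itself cannot be told apart from loss of Maf. Whole kidney holds many cell types, and fewer proximal tubule cells and less RNA per cell cannot be told apart.

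Libraries held 16649129 to 22990257 counted reads, and levels are given as CPM, counts scaled to a common library size, after normalization by the trimmed mean of M values (TMM). Values of single mice follow the order of mice 1 to 4 of each genotype. The labels named whole kidney as the tissue but liver in the extraction notes: the summed level of 10 proximal tubule markers was 14967 to 21868 CPM across the 8 mice, while the list of 6 hepatocyte markers summed to 437 to 718 CPM. Nearly all of that was Apob, with 8540 to 15231 counts. Of the other hepatocyte markers, Alb had 13 to 196 counts, Serpina1a 25 to 262, Apoa1 0 to 32, and Cps1 and Tat 0 to 2. Maf had 178, 671, 533 and 187 counts in c-MafΔTAM mice 1 to 4, and the controls had 7746, 7580, 6018 and 5988 counts. The genotypes did not overlap, and the log2 fold change of Maf was -4.05 (SE 0.51, adjusted p = 0.0115, edgeR quasi-likelihood test).

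3 of the 8 libraries stood apart in a way that genotype did not account for. Xist, the RNA that coats the inactive X chromosome of female cells, had 17618 to 22387 counts in 5 mice (c-MafΔTAM mice 2, 3 and 4 and c-Maf fl/fl mice 1 and 2) and 2, 6 and 22 counts in c-MafΔTAM mouse 1 and c-Maf fl/fl mice 3 and 4. The sex of the mice was not given in the sources used here. Differences between mice of a genotype, as chi-square per degree of freedom over genes, were 5.45 to 14.7 for pairs with high Xist and 29.3 to 109 for every pair that included a low-Xist mouse. The 10 genes below are therefore also given with Xist as a covariate or within the 5 high-Xist mice (3 c-MafΔTAM and 2 c-Maf fl/fl). The mitochondrial share of counts was 32.3%, 18.7% and 25.5% in the low-Xist mice c-MafΔTAM 1 and c-Maf fl/fl 3 and 4, and 17.1% to 22.1% in the others.

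Per kilobase of exon, the c-Maf fl/fl kidneys held most Mep1a and Ggt1, at 285 ± 87.9 and 226 ± 64.5 CPM per kb (SD, n = 4). Their spreads between mice overlapped, while within a mouse Mep1a was above Ggt1 in 4 of 4 controls. Pdzk1 followed at 117 ± 25.5 CPM per kb. Dpep1 and Vil1 stood at 52.4 ± 6.16 and 46.3 ± 6.96 CPM per kb, and Anpep and Mep1b at 39.8 ± 9.23 and 39.5 ± 11.9 CPM per kb. The spreads of these 4 genes overlapped one another, and that of Treh (28.3 ± 16.4 CPM per kb) overlapped those of Vil1, Anpep and Mep1b but not that of Dpep1. Within a mouse, Dpep1 was above Vil1 and Vil1 above Anpep in 4 of 4 controls, and Anpep was above Mep1b in 2 of 4. Dpp4 at 10.7 ± 2.01 CPM per kb, which overlapped the wide spread of Treh, and Xpnpep2 at 2.75 ± 0.72 CPM per kb were the lowest of the 10. In c-MafΔTAM kidneys Dpep1 stood at 17.3 ± 3.05 and Treh at 29.1 ± 13.6 CPM per kb, with spreads that overlapped between mice. Within a mouse, Dpep1 was above Treh in 4 of 4 controls and in 0 of 4 c-MafΔTAM mice, where Treh stood at 49.1, 25.8, 20.6 and 20.8 against 15.3, 21.0, 18.6 and 14.3 CPM per kb of Dpep1.

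To learn which brush border genes depended on genotype, all 20149 genes with enough counts were tested together. 1 of the 10 genes was lower in c-MafΔTAM mice at an adjusted p under 0.05, against a background of 1.58% of all genes tested (2.16% were called in either direction). None of the 10 was higher by edgeR's quasi-likelihood test, which called 0.586% of all genes higher, nor by DESeq2, edgeR's exact test or limma. At an unadjusted p under 0.05, 1 gene was lower and 1 was higher. The share of all genes at the unadjusted threshold was not computed, so these counts, and those of the lists below, have no background. In 0 of the 10 genes were all c-MafΔTAM kidneys above all controls, where 4.17% of all genes tested were so placed. The median log2 fold change was 0.02 over the 10 genes and 0.00 over all genes tested, with 5 of the 10 genes below 0 and 5 above. Scaling to the summed counts of the proximal tubule markers in place of TMM moved the median of all genes to 0.30 and the calls from 318 lower and 118 higher to 183 lower (0.908%) and 1564 higher (7.76%). These markers include Slc34a1, itself called lower in c-MafΔTAM mice (log2 fold change -1.23), so this scaling is not independent of genotype. Under that scaling 2 of the 10 genes were below 0 (Dpep1 and Pdzk1) and 8 above, and 1 was called lower and 1 higher (Dpp4, 0.66).

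**Figure D1:**
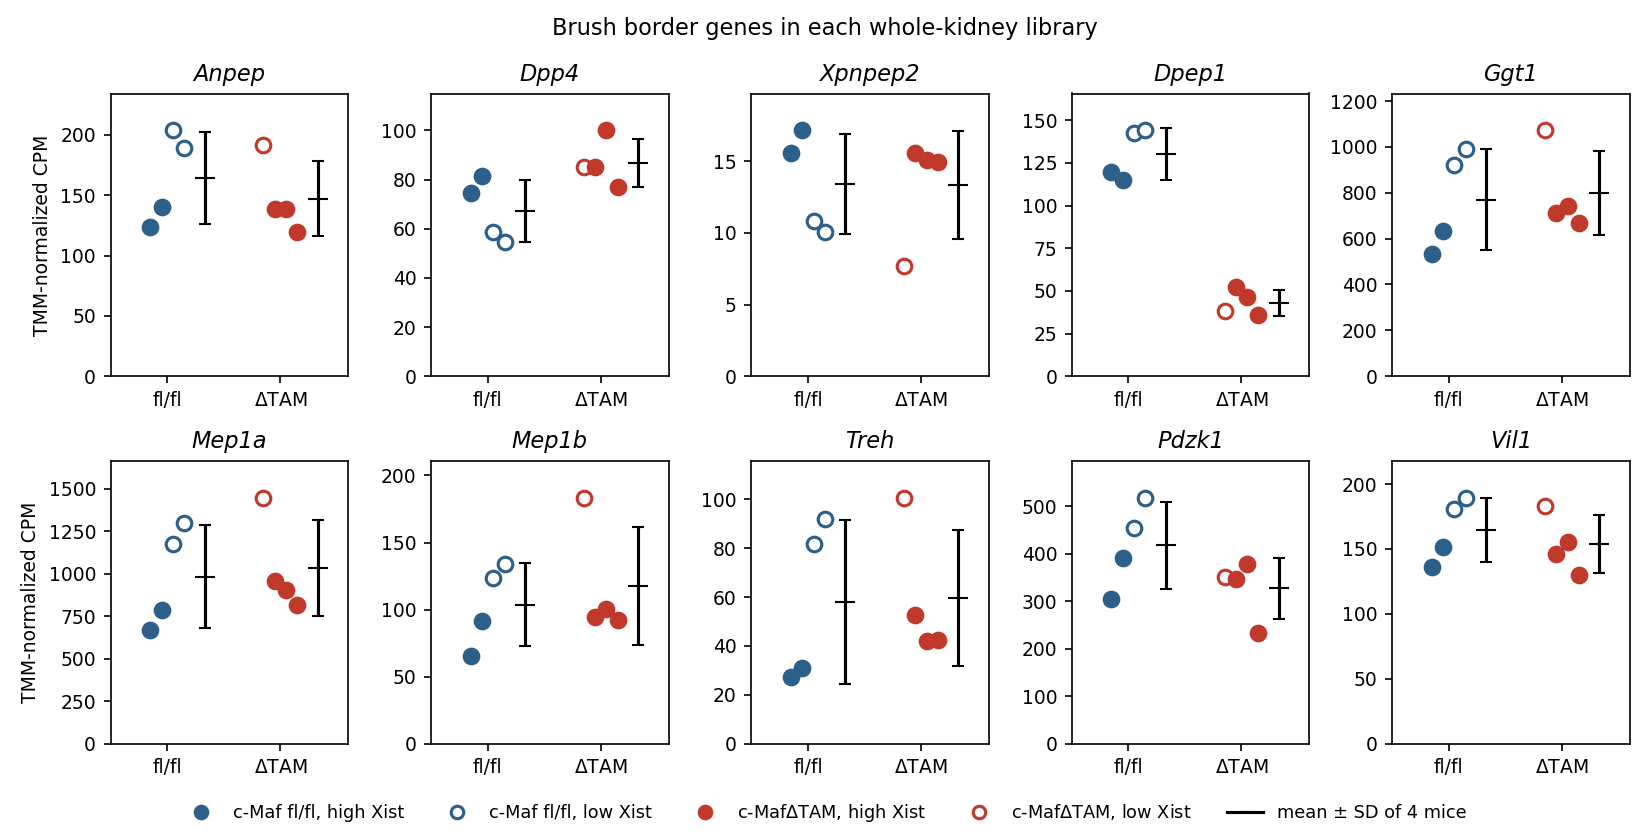
TMM-normalized CPM (y axes, linear, from 0) of the 10 brush border genes in each kidney, by genotype (x axis). Points are single mice, filled for high Xist and open for low Xist, and the bars give the mean ± SD of 4 mice. Dpep1 separates the genotypes, at 35.6 to 52.2 CPM against 115 to 144 CPM, whereas in Anpep, Ggt1, Mep1a, Mep1b, Treh and Vil1 all open points lie above all filled points.

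Dpep1 is a GPI-anchored dipeptidase that splits dipeptides, among them the cysteinylglycine left when glutathione is cut, and converts leukotriene D4. It lies at chr8:123186242-123201812 (GRCm38) on the plus strand, and none of its exon bases is shared with another gene of the table. Dpep1 stood at 38.2, 52.2, 46.1 and 35.6 CPM in the c-MafΔTAM mice, as against 119, 115, 143 and 144 CPM in the controls. The highest c-MafΔTAM kidney was below the lowest control, a separation that 5.62% of all genes tested showed in this direction. The log2 fold change was -1.60 (SE 0.13, 95% confidence interval -1.88 to -1.31, adjusted p = 6.00e-05). The value was -1.58 with Xist as a covariate (adjusted p = 3.62e-05) and -1.39 among the 5 high-Xist mice (adjusted p = 0.000143), where 4.23% and 2.22% of all genes were called lower. In the low-Xist kidneys Dpep1 was at 38.2 CPM in c-MafΔTAM mouse 1 against 143 and 144 CPM in the c-Maf fl/fl mice. Leaving out any 1 mouse gave log2 fold changes of -1.71 to -1.52, each past the threshold.

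Maf proteins bind the Maf recognition element, whose core is TGCTGA, read as TCAGCA on the opposite strand. In the full TRE-type and CRE-type elements the core is joined by C or by CG to its own reverse complement, so each full element also holds the core. These letters were searched on both strands in the 250 bases before each RefSeq transcript start (GRCm38.p6), where 13 windows were found for 9 of the 10 genes. The core was found in the windows of 2 genes, Dpep1 and Treh, and in 16.1% of all 32851 windows of the same length, and neither full element was found in a window of the 10 genes. The Dpep1 window, the upstream sequence of the one gene that separated the genotypes, is chr8:123185985-123186234 on the plus strand, with the match at 220 to 215 bases before the start in capitals.
Dpep1 upstream: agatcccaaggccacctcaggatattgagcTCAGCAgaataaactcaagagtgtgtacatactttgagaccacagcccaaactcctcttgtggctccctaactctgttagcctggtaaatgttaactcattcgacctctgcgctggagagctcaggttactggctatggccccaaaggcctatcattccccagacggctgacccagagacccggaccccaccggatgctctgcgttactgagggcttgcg
The Treh window, the other one with the core, is chr9:44672983-44673232 on the plus strand, with the match at 28 to 23 bases before the start in capitals.
Treh upstream: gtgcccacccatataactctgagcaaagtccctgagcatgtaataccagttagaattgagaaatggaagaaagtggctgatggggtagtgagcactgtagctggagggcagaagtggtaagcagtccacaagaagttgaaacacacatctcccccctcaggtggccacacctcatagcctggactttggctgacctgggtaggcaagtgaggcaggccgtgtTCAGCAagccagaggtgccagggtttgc
Each match is a description of the letters in a window, and binding was not measured.

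Ggt1, the γ-glutamyltransferase that opens glutathione degradation ahead of Dpep1, lies at chr10:75561604-75586200 on the plus strand. It stood at 1073, 712, 741 and 669 CPM in the c-MafΔTAM mice, as against 533, 635, 919.9 and 989 CPM in the controls. The genotypes overlapped, with the highest values in the low-Xist mice of each genotype. Its log2 fold change was 0.05 (SE 0.22, 95% interval -0.44 to 0.55, adjusted p = 0.944). In the 5 high-Xist mice the c-MafΔTAM kidneys were all above the controls, with a log2 fold change of 0.28 (interval 0.07 to 0.48) that did not pass the test (adjusted p = 0.155). Over all 8 mice the intervals of the enzymes at these steps of glutathione degradation did not meet, at -1.88 to -1.31 for Dpep1 and -0.44 to 0.55 for Ggt1.

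The exopeptidases Anpep, Dpp4 and Xpnpep2 trim the N-terminal ends of peptides. Anpep, aminopeptidase N, lies at chr7:79821803-79861059 on the minus strand. Its level was 192, 139, 139 and 119.5 CPM in the c-MafΔTAM mice, as against 124, 141, 204 and 189 CPM in the controls. The genotypes overlapped throughout (log2 fold change -0.16, SE 0.18, 95% interval -0.57 to 0.25, adjusted p = 0.767), and within the high-Xist mice the log2 fold change was -0.00 (interval -0.20 to 0.20).

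Dpp4 removes dipeptides that end in proline or alanine and inactivates the incretin hormones. The gene lies at chr2:62330073-62412231 on the minus strand. Its level was 85.1, 85.1, 100.03 and 76.9 CPM in the c-MafΔTAM mice, as against 74.4, 81.5, 58.7 and 54.7 CPM in the controls. Only c-MafΔTAM mouse 4 fell inside the control range. The log2 fold change was 0.37 (SE 0.13, 95% interval 0.08 to 0.65), and the p of 0.0170 became 0.226 after adjustment over all genes in edgeR. With Xist as a covariate the log2 fold change was 0.33 (adjusted p = 0.0725), and among high-Xist mice it was 0.16 (interval -0.06 to 0.39).

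Xpnpep2, the membrane aminopeptidase P that cuts before a proline and degrades bradykinin, lies at chrX:48108725-48136981 on the plus strand. It was measured at 7.68, 15.6, 15.1 and 14.9 CPM in the c-MafΔTAM mice, as against 15.6, 17.2, 10.8 and 10.1 CPM in the controls. The 3 low-Xist mice held the 3 lowest levels. Across all mice the log2 fold change was -0.01 (SE 0.24, 95% interval -0.56 to 0.53, adjusted p = 0.988), and with Xist as a covariate it was -0.18 (interval -0.42 to 0.07).

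Mep1a and Mep1b encode the α and β subunits of meprin, a zinc metalloendopeptidase abundant in the rodent brush border. They lie at chr17:43474324-43502812 on the minus strand, and at chr18:21061923-21100199 on the plus strand. Mep1a stood at 1447, 959, 903 and 818 CPM in the c-MafΔTAM mice, as against 668, 785, 1176 and 1299.9 CPM in the controls. Mep1b was at 183, 94.6, 100.2 and 92.4 CPM in the c-MafΔTAM mice, as against 65.5, 91.6, 124 and 134 CPM in the controls. For both subunits, c-MafΔTAM mouse 1 was the highest of all and c-Maf fl/fl mouse 1 the lowest. Mep1a gave a log2 fold change of 0.07 (SE 0.25, 95% interval -0.49 to 0.64, adjusted p = 0.936) and Mep1b one of 0.18 (SE 0.30, interval -0.53 to 0.89, adjusted p = 0.850). With Xist as a covariate the values were 0.22 (interval 0.03 to 0.42, adjusted p = 0.175) for Mep1a and 0.31 (interval 0.10 to 0.52, adjusted p = 0.0712) for Mep1b, neither past the threshold.

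Treh, trehalase, splits the disaccharide trehalose into glucose and lies at chr9:44673233-44686305 on the plus strand. It was measured at 101, 52.8, 42.1 and 42.6 CPM in the c-MafΔTAM mice, as against 27.1, 30.9, 81.6 and 91.9 CPM in the controls. The low-Xist mice were far above the others, 2.99-fold within the c-Maf fl/fl genotype and 2.19-fold within c-MafΔTAM, where 1 mouse had low Xist. Over all 8 mice the log2 fold change was 0.04 with the widest error of the 10 genes (SE 0.52, 95% interval -1.21 to 1.30, adjusted p = 0.982). Among the 5 high-Xist mice, however, the 3 c-MafΔTAM kidneys (42.1 to 52.8 CPM) were above both controls (27.1 and 30.9 CPM), with a log2 fold change of 0.66 (SE 0.12, interval 0.41 to 0.91, adjusted p = 0.00381). In that fit 1.53% of 21027 genes were called higher. With all 8 mice and Xist as a covariate the value was 0.39 (interval 0.03 to 0.76, adjusted p = 0.208), which did not pass, in a fit that called 2.59% of all genes higher. The difference of this effect between the Xist classes was not tested, since low Xist was found in 1 c-MafΔTAM mouse.

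The scaffold genes showed no call in any of these fits. Pdzk1, which has several PDZ domains and binds the sodium-phosphate cotransporter among others, lies at chr3:96829284-96870926 on the plus strand. Of its exon bases, 41.7% are shared with Cd160, 4930442L01Rik and Gpr89, so its counts come mainly from the rest of the gene and its level per length is uncertain. Pdzk1 stood at 349.9, 347, 378 and 233 CPM in the c-MafΔTAM mice, as against 306, 391, 455 and 517 CPM in the controls. 3 of the 4 controls were above every c-MafΔTAM kidney, and c-Maf fl/fl mouse 1 was not. Its log2 fold change was -0.35 (SE 0.18, 95% interval -0.75 to 0.05, adjusted p = 0.433), and among high-Xist mice -0.13 (interval -0.78 to 0.53).

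Vil1, villin, lies at chr1:74409376-74435559 on the plus strand. Its level was 183, 146, 155 and 130.0 CPM in the c-MafΔTAM mice, as against 136, 152, 180.4 and 189 CPM in the controls. The genotypes overlapped (log2 fold change -0.10, SE 0.13, 95% interval -0.38 to 0.18, adjusted p = 0.794), and among high-Xist mice the value was -0.01 (interval -0.20 to 0.19). Vil1 and Anpep had the narrowest intervals around 0 among high-Xist mice.

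**Figure D2:**
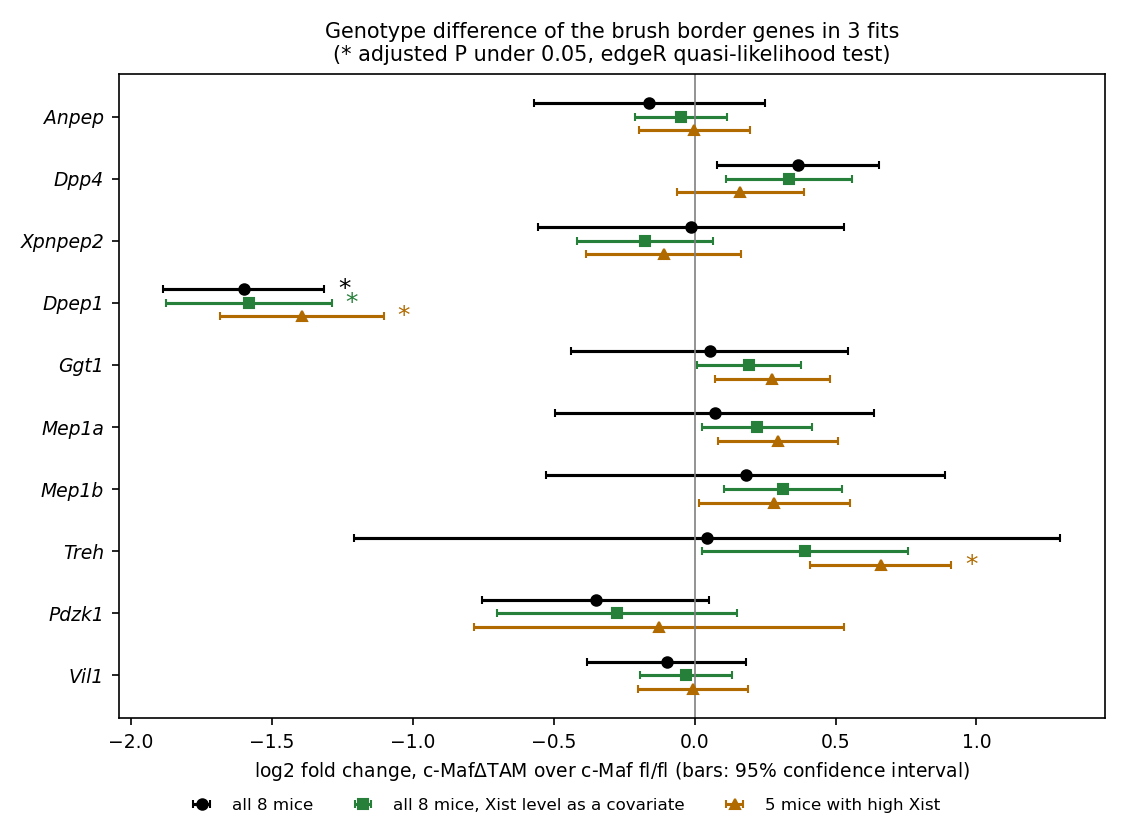
Log2 fold change of each gene, c-MafΔTAM over c-Maf fl/fl (x axis), with its 95% confidence interval in 3 edgeR fits: all 8 mice (black circles), all 8 mice with Xist as a covariate (green squares) and the 5 high-Xist mice (orange triangles). Asterisks mark adjusted p under 0.05. Dpep1 passes in each fit, at -1.60, -1.58 and -1.39, Treh passes in the high-Xist fit alone, at 0.66, and the bar of Treh shrinks from -1.21 to 1.30 over all mice to 0.41 to 0.91.

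The levels were also set out by Xist class. All 3 low-Xist mice were above all 5 high-Xist mice in 6 of the 10 genes (Anpep, Ggt1, Mep1a, Mep1b, Treh and Vil1) and below them in 1 (Xpnpep2), against 7.43% and 6.85% of all genes tested. Within the c-Maf fl/fl genotype, which had 2 mice of each class, low-Xist kidneys held 1.70-fold the Mep1a, 1.64-fold the Mep1b, 1.64-fold the Ggt1, 1.49-fold the Anpep and 1.28-fold the Vil1 of high-Xist kidneys. Xpnpep2 was at 0.64-fold. The same direction held within c-MafΔTAM, at 1.62-fold for Mep1a, 1.91-fold for Mep1b, 1.52-fold for Ggt1, 1.45-fold for Anpep and 1.28-fold for Vil1. Pdzk1, Dpp4 and Dpep1 overlapped between the classes.

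When the genotypes were compared inside each class, c-MafΔTAM kidneys were above every control in both classes for 4 of the 10 genes (Ggt1, Mep1a, Mep1b and Treh), where 9.5% of all genes tested did so, and below every control in both classes for 2 genes (Dpep1 and Xpnpep2), where 11.1% did so. This comparison was added after the data were seen, and its low-Xist side holds 1 c-MafΔTAM mouse. Ratios of c-MafΔTAM to c-Maf fl/fl means in the high-Xist and low-Xist mice were 1.21 and 1.12 for Ggt1, 1.23 and 1.17 for Mep1a, 1.22 and 1.42 for Mep1b, and 1.58 and 1.16 for Treh. Of these 4, only Treh passed the edgeR test, and only among high-Xist mice. For Dpep1 the same ratios were 0.38 and 0.27, and for Xpnpep2 they were 0.93 and 0.74.

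**Figure D3:**
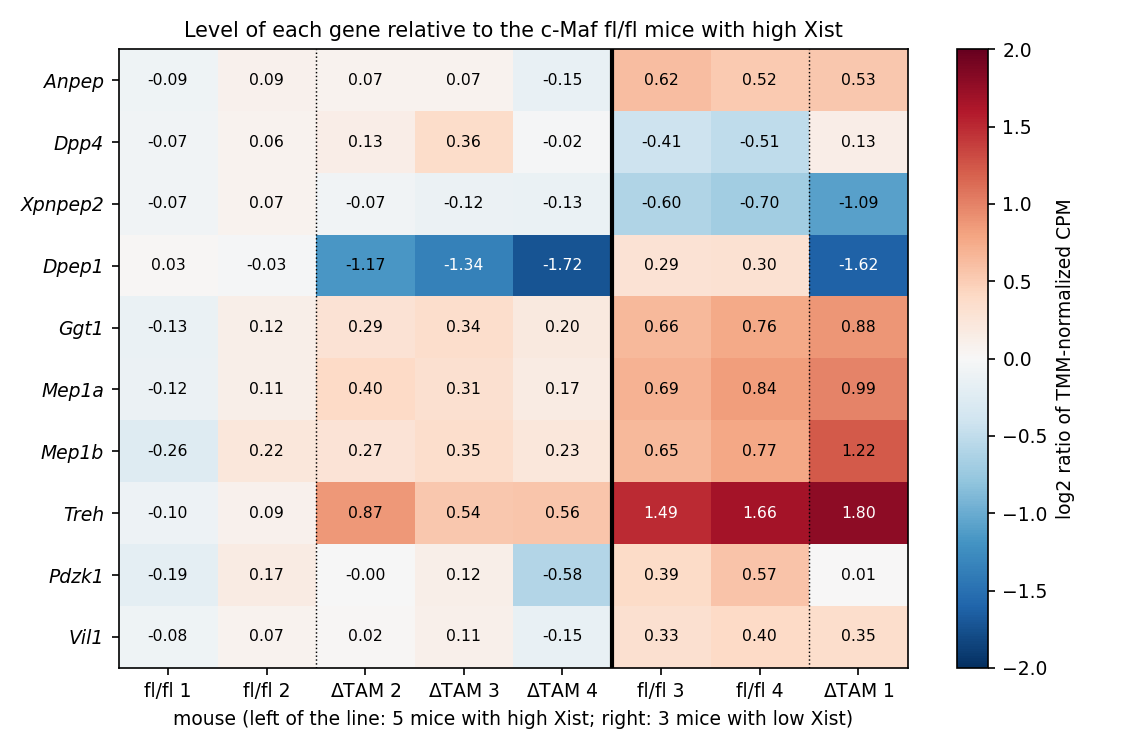
Log2 ratio of TMM-normalized CPM in each kidney (columns) to the mean of the 2 c-Maf fl/fl mice with high Xist, for each gene (rows), with high-Xist mice left of the solid line and low-Xist mice right of it. Dotted lines separate the genotypes. The Dpep1 row is blue in the c-MafΔTAM columns of both classes, from -1.72 to -1.17, while the Treh row reaches 1.49 to 1.80 in the low-Xist columns.

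Marker genes of the tubule segments were set beside these values. The summed level of 8 markers of the late proximal segment (S3) was 3003 to 4911 CPM in the low-Xist mice and 1636 to 2265 CPM in the high-Xist mice. This split of the sum came from Atp11a, at 3465, 1684 and 2064 CPM in the low-Xist mice c-MafΔTAM 1 and c-Maf fl/fl 3 and 4 and 592 to 948 CPM in the others, and without it the sums overlapped, at 1319 to 1446 and 1043 to 1385 CPM. Of the 8 markers, 2 (Atp11a and Slc7a13) were higher in every low-Xist mouse and 6 overlapped between the Xist classes, among them Slc7a12, which in the controls was lower in the low-Xist mice (40.7 and 60.0 CPM) than in the high-Xist mice (165 and 227 CPM). Between genotypes, 0 of the 8 were called by edgeR, with 0 lower and 2 higher at an unadjusted p under 0.05. Of 8 markers of the early segments (S1 and S2), 7 were called lower, and their summed level was 1562 to 1736 CPM in c-MafΔTAM against 3453 to 3691 CPM in c-Maf fl/fl mice. The 3 of smallest p were Slc7a7 (log2 fold change -1.20), Slc4a4 (-0.99) and Slc5a12 (-1.71), which are transporters of amino acids, bicarbonate and lactate. Dpep1 moved with this list, and the other 9 brush border genes, tested in the same fit, were not called. In the general proximal tubule list 1 of 10 markers was called, Slc34a1 (-1.23), a sodium-phosphate cotransporter. In that list 8 of 10 were below 0, with a median log2 fold change of -0.18, and 4 were lower and 0 higher at an unadjusted p under 0.05. Its summed level was 14967 to 18788 CPM in c-MafΔTAM against 18768 to 21868 CPM in control kidneys. Slc34a1 alone held 1481 to 1972 CPM in c-MafΔTAM against 3501 to 4532 CPM in control kidneys, so part of the difference in the sum came from this 1 called gene. The part of segment make-up in the level of Dpep1 was not tested. Since enterocytes build a brush border with the same enzymes, 8 enterocyte markers were examined too: Alpi, Sis, Cdx1 and Cdx2 had 0 or 1 count in every mouse, Fabp2 and Lct had 0 to 12 counts, and Apoa4 and Guca2b, the ones with enough counts to test, were not called. The summed level of this list, nearly all Guca2b, was 114 to 313 CPM in c-MafΔTAM and 90.9 to 257 CPM in control kidneys. Among the remaining lists (macrophage, podocyte, tubular injury, lymphocyte, thick limb, hepatocyte, collecting duct, fibroblast, distal convoluted tubule and endothelium), 1 gene was called, the endothelial receptor Kdr (-0.37). Between the Xist classes, several of these sums did not overlap. Those of the podocyte list (389 to 429 against 505 to 550.3 CPM), the distal convoluted tubule list (1182 to 1348 against 1505 to 1974 CPM) and the collecting duct list (344 to 363 against 408 to 539 CPM) were lower in the low-Xist mice. The tubular injury sum, at 391 to 583.03 against 583.37 to 987 CPM, was also lower there by a narrow margin. The enterocyte sum was higher in the low-Xist mice, at 236 to 313 against 90.9 to 155 CPM. The sums of the other cell type lists overlapped between the classes, apart from S3. The part of these cell types in the differences between the Xist classes was not tested.

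Other hydrolases were listed for comparison with the 10 genes. This list was not limited to enzymes known to sit in the brush border membrane, and the place of each protein was not measured. Of 25 listed, 18 were tested, 2 were lower, 1 was higher and 15 did not pass, with a median log2 fold change of 0.02, where 1.58% of all genes tested were lower and 0.586% higher. With proximal-marker scaling 1 was lower and 4 were higher, where 0.908% of all genes were lower and 7.76% higher. Enpep, aminopeptidase A, which removes acidic N-terminal residues and degrades angiotensin II, was at 96.0 to 115 CPM in c-MafΔTAM and 139 to 165 CPM in c-Maf fl/fl mice (log2 fold change -0.52, SE 0.09, adjusted p = 0.00988). Folh1, glutamate carboxypeptidase II, was at 13.6 to 40.5 against 77.2 to 104 CPM (-1.66, SE 0.31, adjusted p = 0.0439). Ace, the angiotensin-converting enzyme, which shares 5.58% of its exon bases with Gm11651, was the one gene that rose, at 284 to 323 against 194 to 251 CPM (0.43, SE 0.10, adjusted p = 0.0436). None of these 3 overlapped between the genotypes. The hydrolases with the highest level per length in the controls were Alpl, alkaline phosphatase, at 116 CPM per kb (log2 fold change -0.26, adjusted p = 0.587), Entpd5, a nucleoside diphosphatase, at 52.6 CPM per kb (0.07, adjusted p = 0.799), and Ace at 43.1 CPM per kb.

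The cytoskeleton and scaffold list had 30 genes, of which 28 were tested, 5 were lower, 0 were higher and 23 did not pass, with a median log2 fold change of -0.03, beside the same 1.58% and 0.586% of all genes. With proximal-marker scaling 0 were lower and 3 higher, beside 0.908% and 7.76% of all genes. At an unadjusted p under 0.05, 8 were lower and 3 higher, with no share of all genes computed at that threshold. DESeq2, limma and edgeR's exact test, after adjustment, also called 0 higher. Cltrn, collectrin, the partner of amino acid transporters, was at 161 to 329 CPM in c-MafΔTAM and 416 to 606 CPM in c-Maf fl/fl mice (log2 fold change -1.09, SE 0.21, adjusted p = 0.0334). Pdzk1ip1, which binds Pdzk1, was at 174 to 210.3 against 247 to 324 CPM (-0.61, SE 0.10, adjusted p = 0.00972). Ezr, ezrin, which ties actin to the membrane, was at 241 to 308 against 341 to 438 CPM (-0.50, SE 0.11, adjusted p = 0.0398). Slc9a3r1, the PDZ scaffold NHERF1, gave 150.4 to 174 against 203 to 263 CPM (-0.46, SE 0.10, adjusted p = 0.0334). Myo7b, a motor of the links between microvilli, gave 105 to 116 against 135 to 153 CPM (-0.37, SE 0.08, adjusted p = 0.0334). The partner and the related scaffold of Pdzk1 were lower, and Pdzk1 itself, at -0.35 with a wider error (SE 0.18), was not called. The difference between their effects was not tested. By level per length the leading genes of the list were Cltrn at 327, Actb, β-actin, at 301 (log2 fold change 0.19, adjusted p = 0.352) and Pdzk1ip1 at 162 CPM per kb.

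Among these 8 genes, leaving out 1 mouse at a time kept the call in 8 of 8 fits for Enpep (log2 fold change -0.57 to -0.47) and Pdzk1ip1 (-0.67 to -0.54). Cltrn lost it without c-MafΔTAM mouse 2 or 3 or c-Maf fl/fl mouse 3 or 4 (-1.08 to -0.98). The call held for Folh1 (-1.85 to -1.41 over the 8 fits) only without c-MafΔTAM mouse 1, for Slc9a3r1 (-0.51 to -0.37) only without c-Maf fl/fl mouse 1, and for Ezr (-0.58 to -0.43) only without c-Maf fl/fl mouse 3. It held for Ace (0.36 to 0.48) only without c-MafΔTAM mouse 1 or c-Maf fl/fl mouse 4, and for Myo7b (-0.40 to -0.34) only without c-MafΔTAM mouse 1 or c-Maf fl/fl mouse 3. With Xist as a covariate and among the high-Xist mice, all 8 of these genes passed the test in the same direction. Scaled to the proximal tubule markers, Folh1 (-1.40) and Ace (0.73) passed, while the other 6 kept their direction but not the call, at -0.22 for Enpep, -0.15 for Slc9a3r1, -0.31 for Pdzk1ip1, -0.76 for Cltrn, -0.22 for Ezr and -0.07 for Myo7b. Under this scaling Dpep1 stood at -1.31 (adjusted p = 1.18e-05). The marker sum holds Slc34a1, which was itself called lower.

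**Figure D4:**
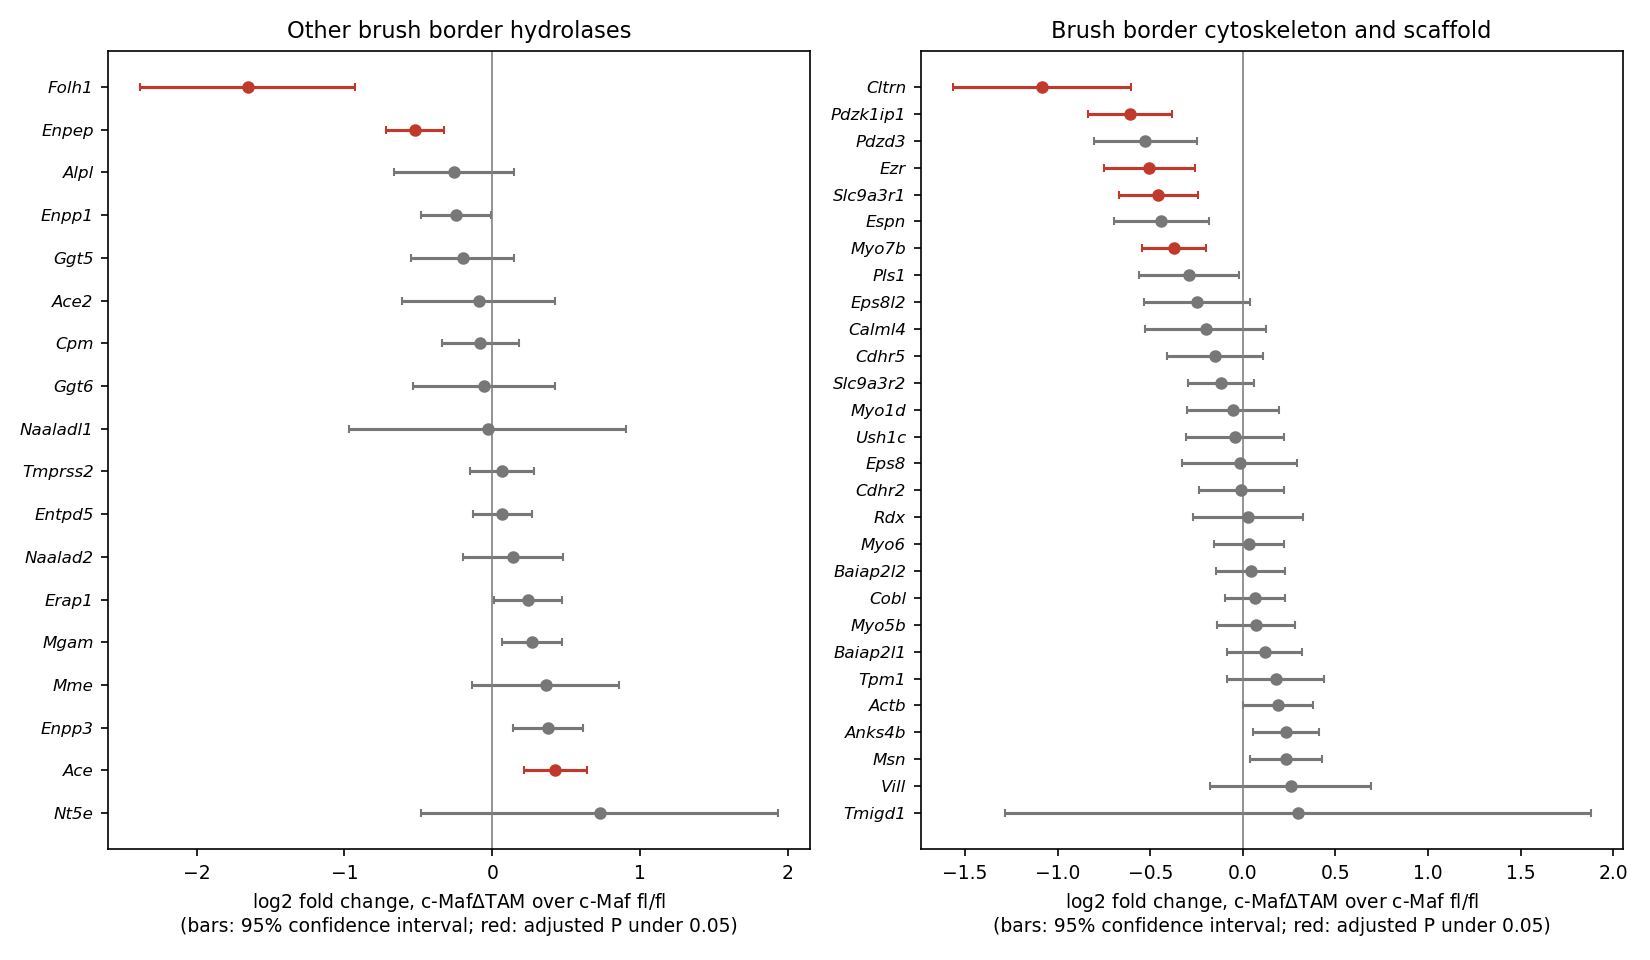
Log2 fold change, c-MafΔTAM over c-Maf fl/fl (x axis), with 95% confidence intervals for the 18 other hydrolases (left) and the 28 cytoskeleton and scaffold genes (right) that were tested in 8 mice, with adjusted p under 0.05 in red. Folh1, Enpep and Ace stand out on the left, and Cltrn, Pdzk1ip1, Ezr, Slc9a3r1 and Myo7b on the right, while most of the other intervals span 0.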

How the data were processed

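Total RNA of 8 whole kidneys (4 c-MafΔTAM, 4 c-Maf fl/fl, grouped by the genotype label) was depleted of ribosomal RNA and sequenced as directional paired-end libraries. The authors deposited raw counts per gene, made per the file header with featureCounts 2.0.1 on the Ensembl GRCm38 annotation, release 102, by exon and gene name. The submitters' processing notes name Subread 2.0.2, featureCounts and edgeR 3.36.0, and the aligner is not given in the sources used here. No strand or pair option was set, so each read of a pair was counted, strand was ignored, and reads over exon bases shared by several genes were left out. The study's own route (CLC Genomics Workbench with quantile normalization) was not repeated.

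From the deposited counts, genes were filtered with filterByExpr (20149 of 55367 kept), normalized by TMM and tested with edgeR 4.0.16 (R 4.3.3) by the robust quasi-likelihood test with Benjamini-Hochberg adjustment over all genes and a threshold of 0.05. The standard error is the absolute log2 fold change over the square root of F. No pair of libraries of the same genotype agreed within counting noise. Whether mice of a group shared a litter or batch is not given in the sources used here. Alternatives were other size factors, quantile normalization with limma 3.58.1, edgeR's exact test, DESeq2 1.42.0, other filters, library sizes without mitochondrial and ribosomal RNA genes or from proximal tubule markers, the replicate number as a block, Xist as a covariate, high-Xist mice alone, each mouse left out, and a threshold of 0.01. Each test was tried on simulated data, whose outcome is not given here, so no claim rests on it. Upstream windows came from RefSeq (GRCm38.p6) and figures from matplotlib 3.10.9.

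The 10 genes, the gene lists and the tests were chosen with earlier results of these data known. The genes named were all 10, Maf and Xist, in the hydrolase and scaffold lists every called gene and the 3 with the highest level per length, and in the cell type lists up to 3 called genes by smallest p. Uncalled markers named within the enterocyte, hepatocyte and S3 lists were named after their values were seen. Slc5a2 and Slc2a2 were named because the study reports them as targets of c-Maf. Tmem27 was listed under its current symbol, Cltrn.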

Additional observations from a re-analysis of the deposited data

Results flagged for a closer look

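Among 38 sets of 4 values examined (19 genes in each genotype), 4 held a mouse far from the other 3 of its genotype, where chance gives about 1 in 20. Xpnpep2 was at 7.68 CPM in c-MafΔTAM mouse 1 against 14.9 to 15.6 CPM in the other 3. Mep1b was at 183 CPM in the same mouse against 92.4 to 100.2 CPM, and Ezr at 241 CPM against 297 to 308 CPM. In the controls Ezr was 341 CPM for mouse 3, where the other 3 had 423 to 438 CPM. Both mice have low Xist, and c-MafΔTAM mouse 1 has the highest mitochondrial share (32.3%). The part of either in these values was not tested.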

How the results depend on the processing

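Dpep1 was the 1 of the 10 genes called lower under every alternative run (log2 fold change -1.61 to -1.31 apart from omitted mice). Calls in the other direction numbered 0, except 1 (Treh) in the high-Xist mice and 1 (Dpp4, 0.66, adjusted p = 0.0222) with proximal-marker scaling. Whether the replicate numbers pair the mice could not be decided. Same-numbered deviations correlated at -0.37, 0.15, -0.11 and -0.33, and 1 of 4 mice correlated best with its own number. However, the mice numbered 1, 3 and 4 differ in Xist class between the genotypes, which by itself sets such deviations apart. With the replicate block, Maf was -4.28 (adjusted p = 0.0516), Dpep1 -1.61 (adjusted p = 0.00663), and both related lists had 0 calls (in all genes 111 lower and 18 higher), with log2 fold changes of -0.52 for Enpep, -1.74 for Folh1, 0.43 for Ace, -0.45 for Slc9a3r1, -0.60 for Pdzk1ip1, -1.11 for Cltrn, -0.50 for Ezr and -0.37 for Myo7b. Maf was -3.87 in the high-Xist mice (adjusted p = 0.108) and -4.41 to -3.80, always called, with 1 mouse omitted. The hydrolase list, with 3 calls (2 lower and 1 higher), had 6 with Xist as a covariate (3 lower and 3 higher), 5 with proximal-marker scaling (1 lower and 4 higher), 4 in the high-Xist mice (2 lower and 2 higher), 2 each with quantile normalization, the exact test and the filter of at least 1 count in any mouse, 1 at the threshold of 0.01 and 1 to 3 with 1 mouse omitted. The scaffold list, with 5 calls, had 3 with upper-quartile factors, 3 with quantile normalization, 2 with the exact test, 7 with DESeq2 (all lower), 6 with the filter of at least 1 count in any mouse, 6 in the high-Xist mice (5 lower and 1 higher), 11 with Xist as a covariate (8 lower and 3 higher), 3 with proximal-marker scaling (0 lower and 3 higher), 1 at the threshold of 0.01 and 1 to 4 with 1 mouse omitted. Calls over all genes also changed, from 318 lower and 118 higher to 567 and 320 with DESeq2, 853 and 521 with Xist as a covariate and 467 and 322 in the high-Xist mice. They were 266 and 152 with upper-quartile factors, 267 and 141 with quantile normalization, 378 and 218 with the exact test and 409 and 191 with the filter of at least 1 count. With 1 mouse omitted they ran from 188 and 51 to 310 and 142. Fewer samples entered the fits with omitted mice, and the cause of the other changes was not tested.

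Genes not called changed sign as follows. Proximal-marker scaling gave 0.17 for Anpep, 0.25 for Xpnpep2 and 0.22 for Vil1, and upper-quartile factors 0.025 for Xpnpep2. Without c-MafΔTAM mouse 1, Xpnpep2 was 0.18, Ggt1 -0.12, Mep1a -0.14, Mep1b -0.11 and Treh -0.33. Without c-Maf fl/fl mouse 1, Xpnpep2 was 0.07, Ggt1 -0.09, Mep1a -0.08 and Treh -0.19, and without c-Maf fl/fl mouse 2 they were 0.13, -0.03, -0.02 and -0.17. With 1 mouse omitted the values ran from -0.12 to 0.18 for Xpnpep2, -0.12 to 0.20 for Ggt1, -0.14 to 0.24 for Mep1a, -0.11 to 0.33 for Mep1b and -0.33 to 0.36 for Treh.

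With 4 mice a genotype and 1 low-Xist c-MafΔTAM mouse, the differences of Ggt1, Mep1a and Mep1b among the high-Xist mice and with Xist as a covariate did not pass adjustment over all genes, which does not show that these genes were equal between the genotypes.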
